A study of Mus musculus with 14 samples.

Results

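The MYC, MAX and MXD network was followed here in mouse MLL-AF9-Cas9+ leukemia cells by the mRNA of 10 genes: Myc, Mycn, Max, Mxd1, Mxd3, Mxd4, Mxi1, Mnt, Mga and Mlx. They were chosen by symbol, as the family that shares MAX or MLX as partner, and all 10 were among the 22155 genes of the count table. Of these, 9 were among the 11169 genes with enough counts to be tested, and Mycn was not. The RNA libraries came from 3 samples transduced with sgCtrl, guide RNA against nonessential sequence, and 3 with sgSgf29, guide RNA against Sgf29, a Tudor domain subunit of the SAGA and ATAC histone acetyltransferase complexes. Cells of both groups carried the MLL-AF9 fusion, introduced by retrovirus into lineage-negative mouse bone marrow cells, and expressed Cas9. The leukemic blasts had been harvested from diseased mice and were grown with murine SCF, IL-3 and IL-6. In both groups the guide was delivered by lentivirus in the ipUSEPR vector, with puromycin at 2 μg/ml for 3 days. The labels do not say whether the 3 samples of a group were separate cultures or different guides, and the p-values therefore rest on the variation among these particular samples, part or all of which may be technical. The 8 chromatin immunoprecipitation and input samples, among the 14 of the series, were not analysed here.

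MYC is a basic helix-loop-helix leucine zipper transcription factor that binds DNA only as a dimer with MAX. MYC-MAX dimers bind the E-box, the hexamer CACGTG, and are known for driving ribosome biogenesis, metabolism and cell division, and high MYC activity is a feature of many leukemias. MXD1, MXD3, MXD4, MXI1, MNT and MGA compete for the same MAX and bind the same E-box, where the MXD proteins and MNT recruit the SIN3 histone deacetylase corepressor. MXD genes are known to rise as blood cells leave the cell cycle and mature, when MYC falls. MLX is a MAX-like protein that dimerizes with MXD1, MXD4, MNT and the glucose-sensing factors MondoA and ChREBP.

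The network was shifted in the sgSgf29 cells, with less Myc and more of several of its antagonists. Of the 9 tested members, 2 fell (Myc and Mlx), 4 rose (Mxd1, Mxd4, Mxi1 and Mnt) and 3 did not pass the test (Max, Mxd3 and Mga), at an adjusted p under 0.05 in edgeR's quasi-likelihood test. Across all 11169 genes tested, 34.4% were lower and 35.4% were higher by the same rule, so the number of members called is near the background and says nothing particular about the network. The groups did not overlap for the same 2 members that fell and the same 4 that rose, against 35.1% of all genes on the lower and 37.0% on the higher side. The median log2 fold change was 0.05 over the 9 members and 0.01 over all genes tested. Scaling by library size alone moved the median of all genes to 0.24 and the counts over all genes from 3842 lower and 3957 higher to 2385 lower and 5575 higher, and it turned the direction of Max, Mlx and Mga.

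In Myc, the founding oncogene of the network (ENSMUSG00000022346, chromosome 15 of GRCm38 from 61985391 to 61990374, plus strand), mRNA measured 207.5, 230.5 and 228.2 CPM with sgCtrl and 97.9, 119.4 and 121.1 CPM with sgSgf29. CPM are counts relative to the library total after TMM scaling (trimmed mean of M values). The highest sgSgf29 library was thus far below the lowest sgCtrl library. The log2 fold change was -0.98 (SE 0.08, 95% interval -1.14 to -0.82, n = 3 per group, adjusted p = 6e-10 from edgeR), a fold of 0.509. The log2 fold change of only 4.99% of all tested genes was lower. The mRNA of Sgf29, the targeted gene, was 12.6, 13.4 and 17.4 CPM in the sgSgf29 libraries and 36.2, 40.4 and 40.4 CPM in the sgCtrl libraries (log2 fold change -1.43, SE 0.11, adjusted p = 2.9e-10 from edgeR). Sgf29 mRNA that remained does not measure protein, since Cas9 cuts need not remove the transcript. On the opposite strand, the gene shares 169 exon bases with the antisense gene 2510046G10Rik and 61 with Sult1a1.

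Mycn, the neural paralog of Myc on chromosome 12, was all but absent. It had counts of 1, 0 and 0 in the sgCtrl and 0, 0 and 1 in the sgSgf29 libraries, below the limit of 3 counts that a count of 0 allows, which is 0.135 to 0.201 CPM depending on the library. Mycl, the paralog outside the 10 members, had 0 counts in all 6 libraries. At this depth, Myc was the one MYC family gene with measurable mRNA in these cells.

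**Figure D1:**
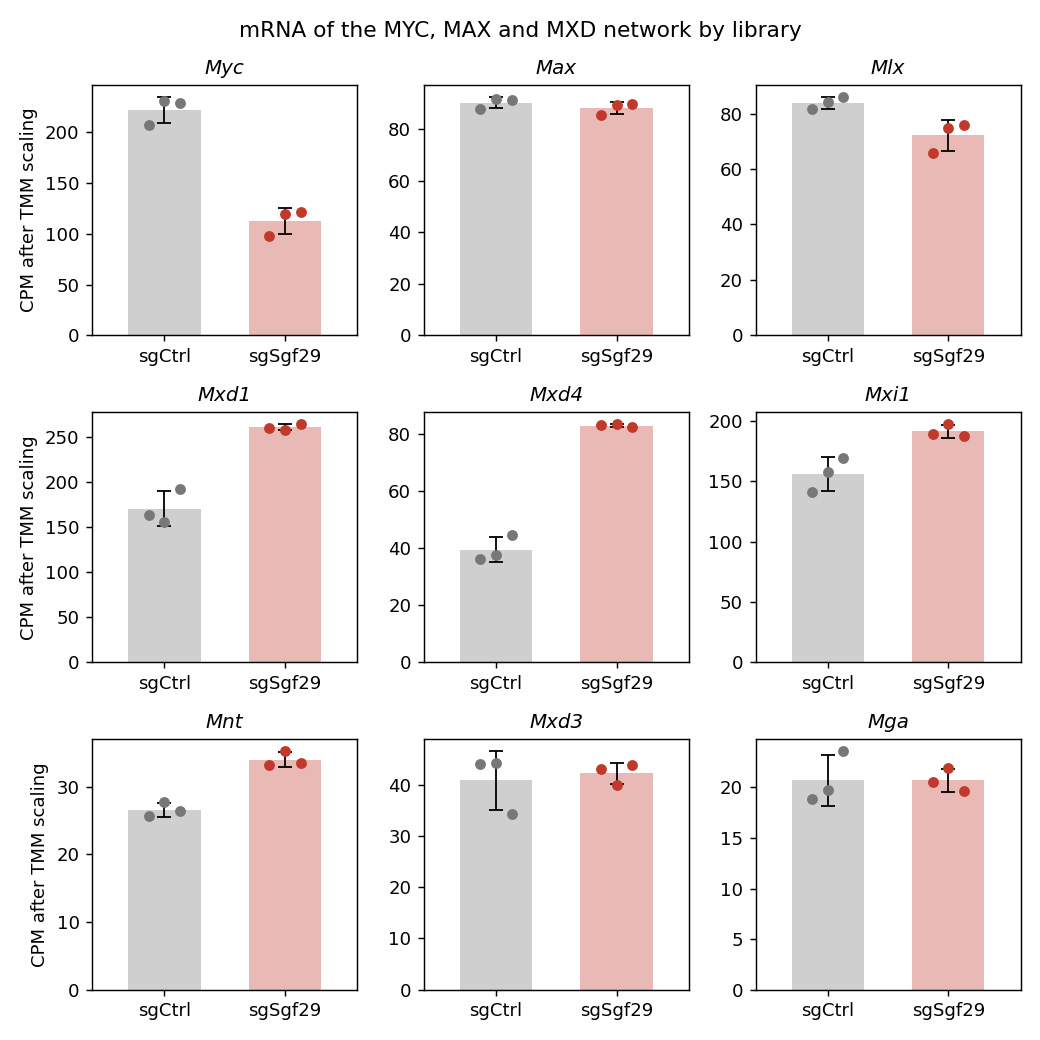
CPM after TMM scaling of the 9 tested members in the 3 sgCtrl (grey) and 3 sgSgf29 (red) libraries, where points are libraries, bars are group means and error bars are the SD (n = 3). Myc and Mlx were lower and Mxd1, Mxd4, Mxi1 and Mnt were higher in each sgSgf29 library than in each sgCtrl library, and Max, Mxd3 and Mga overlapped.

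The canonical E-box CACGTG, the hexamer that MYC-MAX and the opposing dimers bind, was searched in the RefSeq promoters of the members on GRCm38.p6 (250 bases before to 50 after each annotated start). The hexamer is its own reverse complement, so both strands were searched at once. Of the 10 members, 9 matched an entry by symbol, all but Myc, with 11 promoters, 3 of them for Mxi1. The hexamer was present in 4 of the 11 promoters (36.4%), in 2349 of 32851 promoters over all genes (7.15%) and in 16 of 57 promoters of the list of MYC target genes described further on (28.1%). These sets were not matched for base composition, and windows of Mxi1 overlap in part. The shares therefore say nothing particular about the network. The 4 promoters with the hexamer are shown around it, each 5′ to 3′ on the strand of the gene, with the hexamer in capitals, because they are the member promoters where the network's own binding letters occur. The first base of the hexamer lies 219, 123, 40 and 3 bases before the RefSeq start in Mxd4, Mnt, Mlx and Max, in this order. The gene coordinates given elsewhere in the text are from GENCODE, whose starts differ from these.
Mxd4 (chr5:34187867-34187960, minus strand): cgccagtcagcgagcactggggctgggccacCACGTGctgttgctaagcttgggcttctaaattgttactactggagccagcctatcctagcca
Mnt (chr11:74830744-74830863, plus strand): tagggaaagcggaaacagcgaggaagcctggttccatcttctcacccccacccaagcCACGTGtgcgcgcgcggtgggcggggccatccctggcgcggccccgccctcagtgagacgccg
Mlx (chr11:101087193-101087309, plus strand): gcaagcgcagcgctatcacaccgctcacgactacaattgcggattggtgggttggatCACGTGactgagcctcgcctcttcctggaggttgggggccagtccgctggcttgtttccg
Max (chr12:76962229-76962308, minus strand): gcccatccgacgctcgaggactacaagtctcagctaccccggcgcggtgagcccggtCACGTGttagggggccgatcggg

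These 4 members did not move together: Mxd4 and Mnt rose, Mlx fell and Max did not pass. Promoters of Mxd1 and Mxi1, which also rose, did not hold these letters in the same windows. A non-canonical E-box (CACGCG, or CGCGTG on the other strand) occurred in 1 of the 11 promoters, that of Mga, and in 9.27% of all promoters. The GC box (GGGCGG or CCGCCC) occurred in 9 of the 11 and in 35.7% of all promoters. The 3 motifs were counted separately and can overlap one another in part.

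The MXD genes code for the small repressors that pair with MAX in place of MYC. Mxd4 (ENSMUSG00000037235, chromosome 5 from 34173883 to 34187720, minus strand) measured 36.2, 37.6 and 44.6 CPM in the sgCtrl and 82.9, 83.4 and 82.3 CPM in the sgSgf29 libraries. All 3 sgSgf29 libraries lay close to one another and well above the highest sgCtrl library. The log2 fold change was 1.07 (SE 0.08, 95% interval 0.91 to 1.22, adjusted p = 1.4e-10 from edgeR), a fold of 2.09, and was higher than that of 90.7% of all tested genes. The changes of Mxd4 and Myc were close in size, and their order by size turned without the first sgCtrl library (1.01 and -1.02). Mxd4 shares 514 exon bases with an antisense gene (Gm42846), and whether strand was used in counting is not given in the sources used here.

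Mxd1, known to rise in myeloid maturation (ENSMUSG00000001156, chromosome 6 from 86647042 to 86669161, minus strand), measured 163.3, 156.1 and 192.3 CPM in the sgCtrl and 259.9, 257.9 and 264.4 CPM in the sgSgf29 libraries. Again the sgSgf29 libraries were close together and above all sgCtrl libraries, of which the third was the highest. The log2 fold change was 0.61 (SE 0.07, 95% interval 0.46 to 0.76, adjusted p = 2.4e-07 from edgeR), a fold of 1.53. Mxi1, the gene of the repressor also called MXD2 (ENSMUSG00000025025, chromosome 19 from 53310518 to 53375810, plus strand), measured 141.4, 157.5 and 169.1 CPM in the sgCtrl and 189.4, 197.6 and 187.6 CPM in the sgSgf29 libraries. The groups were apart by a smaller gap, with a log2 fold change of 0.30 (SE 0.07, adjusted p = 0.00074 from edgeR).

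Mxd3, the MXD gene that is known to be expressed in dividing progenitors rather than maturing cells (ENSMUSG00000021485, chromosome 13 from 55325168 to 55329823, minus strand), measured 44.0, 44.3 and 34.3 CPM in the sgCtrl and 43.1, 39.9 and 43.8 CPM in the sgSgf29 libraries. The groups overlapped, and the third sgCtrl library was the lowest of the 6. The log2 fold change was 0.05 (95% interval -0.13 to 0.24, adjusted p = 0.61 from edgeR), and 0.28 (adjusted p = 0.0099) with library size scaling. Within each library, the ratio of Mxd4 to Mxd3 counts rose by 1.02 on the log2 scale and that of Mxd1 to Mxd3 by 0.56, and neither ratio overlapped between the groups.

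Mnt and Mga code for the large MAX partners. Mnt, a repressor expressed in most cell types whether or not they divide (ENSMUSG00000000282, chromosome 11 from 74830920 to 74845725, plus strand), measured 25.7, 27.7 and 26.5 CPM in the sgCtrl and 33.2, 35.3 and 33.6 CPM in the sgSgf29 libraries. The groups were apart, with a log2 fold change of 0.35 (SE 0.08, adjusted p = 0.00058 from edgeR). Mga, which also carries a T-box domain and is the scaffold of the polycomb complex PRC1.6 (ENSMUSG00000033943, chromosome 2 from 119897228 to 119969581, plus strand), measured 18.8, 19.8 and 23.6 CPM in the sgCtrl and 20.6, 21.9 and 19.6 CPM in the sgSgf29 libraries. The groups overlapped, with a log2 fold change of -0.01 (95% interval -0.22 to 0.21, adjusted p = 0.96 from edgeR) that turned to 0.23 with library size scaling.

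Max and Mlx code for the shared dimer partners. Max (ENSMUSG00000059436, chromosome 12 from 76937269 to 76962201, minus strand) measured 87.8, 91.9 and 91.5 CPM in the sgCtrl and 85.6, 89.6 and 89.7 CPM in the sgSgf29 libraries. The groups overlapped within a narrow range, and the log2 fold change was -0.03 (95% interval -0.16 to 0.10, adjusted p = 0.64 from edgeR). Its direction turned with library size scaling, to 0.20 (adjusted p = 0.01). Mlx (ENSMUSG00000017801, chromosome 11 from 101087277 to 101092207, plus strand) measured 81.6, 84.0 and 86.0 CPM in the sgCtrl and 65.9, 74.9 and 75.9 CPM in the sgSgf29 libraries. The groups were apart, with a log2 fold change of -0.21 (SE 0.07, adjusted p = 0.0085 from edgeR), but the call did not hold without the first sgSgf29 library, the lowest of the 6 (log2 fold change -0.15, adjusted p = 0.075), and the value was 0.02 (adjusted p = 0.84) with library size scaling. Mlx shares 385 exon bases with Psmc3ip on the opposite strand, so reads of the pair could be mixed if the counting ignored strand. The same holds for Mxi1, with 194 bases shared with Gm10197, and Mxd3, with 105 shared with Prelid1.

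**Figure D2:**
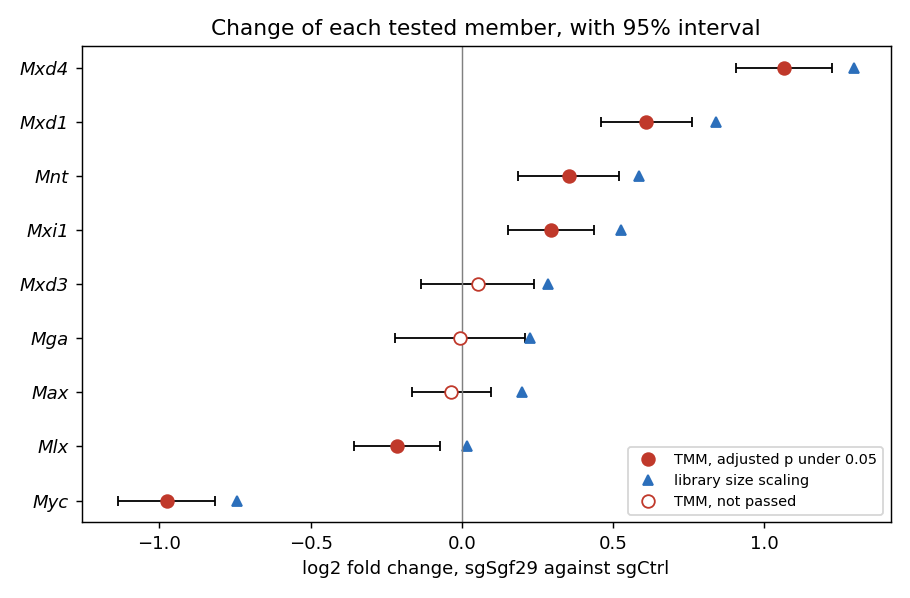
Log2 fold change of sgSgf29 against sgCtrl for each tested member, with circles for TMM scaling (filled where the adjusted p was under 0.05), bars for the 95% interval and triangles for library size scaling. Mxd4 at 1.07 and Myc at -0.98 lie at the ends, and the triangles lie to the right of the circles, which puts Max at 0.20 and Mlx at 0.02.

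Ratios within a library do not depend on how libraries were scaled. In counts of 1 member over counts of another, 36 pairs of tested members can be formed. The ratio did not overlap between the groups in 28 pairs and overlapped in 8. The share over pairs of all tested genes was not computed, and single genes were apart in 35.1% on the lower and 37.0% on the higher side. The pairs also reuse the same members, so these counts say nothing particular about the network. All 8 pairs with Myc were apart, from Mlx over Myc, where the mean log2 ratio rose by 0.76 (SE 0.05), to Mxd4 over Myc, where it rose by 2.06 (SE 0.13). With 3 libraries against 3 the exact permutation test cannot go below 0.1, so these ratios are given as descriptions. Among members next to each other in the order of change, the ratios of Mxd4 to Mxd1 (0.46), Mxd1 to Mnt (0.27), Max to Mlx (0.18) and Mlx to Myc (0.76) moved without overlap. Those of Mnt to Mxi1, Mxi1 to Mxd3, Mxd3 to Mga and Mga to Max overlapped, so the order of these neighbours was not set apart from their spread.

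Levels can be compared between genes only per length, here as CPM per kilobase of merged exons in GENCODE on GRCm38. In the sgCtrl cells Myc was the most abundant member, at 81.7 ± 4.66 (SD, n = 3), followed by Mlx at 42.0 ± 1.10. Max at 25.1 ± 0.620, Mxd1 at 24.1 ± 2.71 and Mxi1 at 22.9 ± 2.04 came next, and neighbours in this group did not differ beyond their spread. Mxd3 was at 17.3 ± 2.41, Mnt at 5.75 ± 0.223, Mxd4 at 4.65 ± 0.526 and Mga at 1.35 ± 0.165. In the sgSgf29 cells the lead of Myc was gone: Myc at 41.5 ± 4.76, Mxd1 at 36.9 ± 0.471 and Mlx at 36.1 ± 2.76 overlapped as neighbours. Mxi1 at 28.1 ± 0.781 was then above Max at 24.5 ± 0.656, and Mxd4 at 9.77 ± 0.0657 was above Mnt at 7.35 ± 0.239, the reverse of the order in the sgCtrl cells. Mxd3 at 17.8 ± 0.880 and Mga at 1.35 ± 0.0744 kept the sixth and ninth places. Part of this order rests on the lengths used. With the longest transcript as length, Myc was again the highest member in the sgCtrl cells (88.8 to 98.6), and Mxd1 (55.9 ± 0.714) was above Myc (48.3 ± 5.53) in the sgSgf29 cells. Mxd4 was then above Mnt in both groups, at 8.53 ± 0.965 against 5.80 ± 0.225 in the sgCtrl cells, and Max at 45.5 ± 1.22 stayed above Mxi1 at 38.0 ± 1.06 in the sgSgf29 cells, so neither reversal held. The places below Myc in the sgCtrl cells changed too. There Max at 46.5 ± 1.15 was above Mlx at 42.7 ± 1.12 and Mxd1 at 36.6 ± 4.11, without overlap.

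The MAX partners were also summed per kilobase. Myc made up 51.0, 52.9 and 51.6% of this partner mRNA with sgCtrl and 26.3, 30.3 and 30.5% with sgSgf29. The partners that oppose MYC (the MXD genes, Mxi1, Mnt and Mga) made up 48.2% ± 0.981 and 71.0% ± 2.37 (SD, n = 3). Mxd1 gained the most, from 15.3% ± 1.47 to 25.8% ± 0.875, then Mxi1, from 14.5% ± 0.694 to 19.7% ± 0.765, and Mxd4, from 2.95% ± 0.244 to 6.85% ± 0.257. The ratio of Myc to the opposing sum was 1.04 to 1.12 with sgCtrl and 0.357 to 0.439 with sgSgf29, so that Myc mRNA was about level with its opponents in the first group and well below them in the second. The ratio of Myc to Max was 3.25 ± 0.107 and 1.69 ± 0.151, and that of the opposing sum to Max was 3.02 ± 0.0742 and 4.13 ± 0.104. With the longest transcript as length in place of merged exons, the ratio of Myc to the opposing sum was 0.889 ± 0.0381 and 0.333 ± 0.0375, and that of Myc to Max was 2.04 ± 0.0670 and 1.06 ± 0.0948. The level of these ratios thus moved with the lengths used, and their direction did not. They describe mRNA, and no protein of the network was measured in these libraries.

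**Figure D3:**
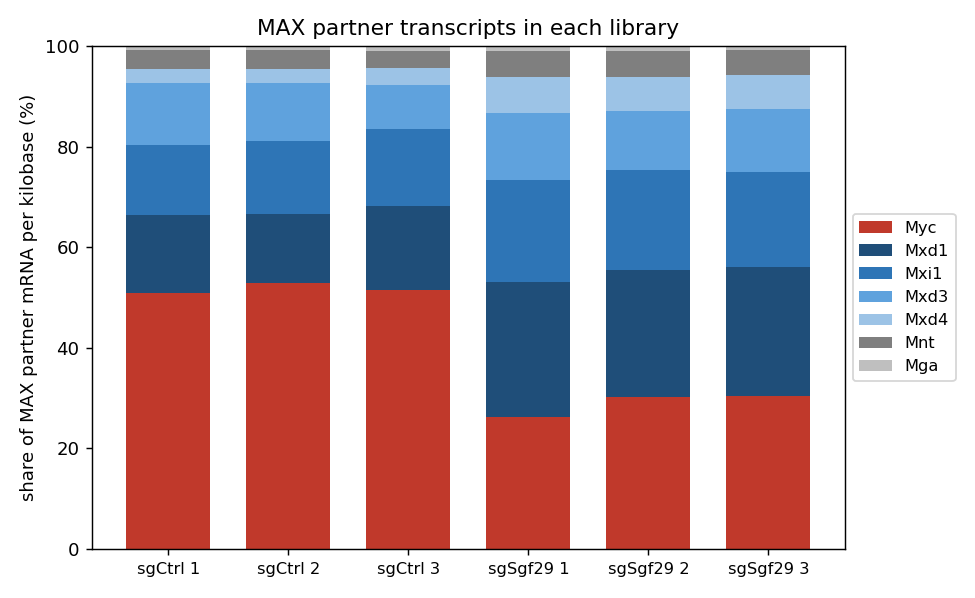
Share of each MAX partner in the partner mRNA per kilobase, in percent, with 1 bar for each of the 6 libraries. Myc (red) covers 51.0 to 52.9% of the bar in the sgCtrl and 26.3 to 30.5% in the sgSgf29 libraries.

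The libraries are bulk RNA, in which fewer cells of a type and less RNA per cell cannot be told apart. Markers of mature myeloid cells moved with the group. Of 25 such markers, 23 were tested, of which 19 rose (82.6%, against 35.4% of all genes) and 3 fell (13%, against 34.4%). The median log2 fold change was 1.92. Their summed level was 10860 to 11410 CPM in the sgCtrl and 28160 to 29730 CPM in the sgSgf29 libraries. Much of this sum was S100a8, with means of 2779 and 7967 CPM, and S100a9, with means of 3447 and 13070 CPM. The 3 that fell were Ltf (-0.86), Ly6c2 (-0.53) and Camp (-0.16). S100a8, S100a9, Ly6c2 and Camp were named after their values were seen. Itgam, which codes for the integrin CD11b, measured 128.9 to 144.7 CPM and 496.7 to 565.6 CPM. Ccr2, Cxcr2 and Adgre1 rose by 3.17, 2.40 and 4.39 on the log2 scale. Fcgr1 had 0 counts in the sgCtrl libraries and 1.98 to 2.17 CPM in the sgSgf29 libraries. Mrc1 was the one marker of this list with 0 counts throughout. Of 7 genes listed as markers of leukemic progenitors, all detected, 5 fell (71.4%, against 34.4% of all genes) and 2 rose (28.6%, against 35.4%). Those that rose were Meis1 with 0.46 and Ptprc with 0.65. Ptprc codes for CD45, which is not limited to progenitors. Hoxa9 (-1.37), Mpo (-1.83) and Myb (-0.69) were among those that fell. Kit, the SCF receptor, was at 30.1, 31.3 and 35.7 CPM against 17.9, 18.8 and 21.6 CPM. Whether these marker changes have a part in the lower Myc and the higher Mxd1 and Mxd4 was not tested. The 18 markers of other lineages summed to 23.2 to 26.3 and 11.3 to 13.8 CPM, with 9 of them at 0 in all libraries, among them Ms4a1 of B cells, Cd3e of T cells and Col3a1 of fibroblasts. Of the 3 that were tested, Mcpt8 (-1.78) and Nkg7 (-1.31) fell (66.7%, against 34.4% of all genes). Ribosomal protein genes took 19.1 to 19.8% of gene counts in the sgCtrl and 12.2 to 13.8% in the sgSgf29 libraries, and the libraries held 16003990 to 21786618 gene counts.

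Most of the listed genes that MYC is known to activate were lower. The lists were chosen with earlier results of these data known, and a link to the lower Myc was not tested. Of 57 genes of a list of MYC targets in nucleolar assembly, nucleotide supply and mitochondria, Myc itself left out, 56 were tested, of which 51 fell, 2 rose and 3 did not pass, with a median log2 fold change of -0.84 against 0.01 over all genes. The share that fell was 91.1%, against 34.4% of all genes tested, and the share that rose was 3.57%, against 35.4%. Under library size scaling, the counts were 44 and 2. Ppan, a ribosome assembly factor, fell from 252.7 ± 20.9 to 82.8 ± 1.77 CPM (log2 fold change -1.61, adjusted p = 6e-14 from edgeR). Hspe1, the mitochondrial co-chaperonin, fell from 313.4 ± 28.0 to 108.9 ± 9.65 CPM (-1.53). The nucleolar genes Nop56 and Gnl3 fell by 1.61 and 1.47 on the log2 scale. The largest fall of the list was in Dusp2, a nuclear phosphatase of MAP kinases, at 9.79, 11.7 and 10.7 CPM in the sgCtrl and 2.75, 1.85 and 1.91 CPM in the sgSgf29 libraries. The 2 that rose were Cbx3, a heterochromatin protein, with 0.22, whose groups overlapped, and Sord, sorbitol dehydrogenase, with 0.20. Sord is named because it was 1 of the 2, after its value was seen.

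Of 16 genes long used as direct E-box targets of MYC, 14 fell (87.5%, against 34.4% of all genes), none rose (against 35.4%) and 2 did not pass. The median log2 fold change was -0.70. Scaled by library size alone, 11 fell and 1 rose. Odc1, the first enzyme of polyamine synthesis, fell from 283.2 ± 7.12 to 140.1 ± 7.11 CPM (log2 fold change -1.02, adjusted p = 1.8e-11 from edgeR). Shmt2, the mitochondrial serine hydroxymethyltransferase, fell from 414.5 ± 8.99 to 215.3 ± 8.67 CPM (-0.95). Ncl, nucleolin, fell from 1703 ± 137 to 827.9 ± 29.3 CPM (-1.04), and Rcc1, the exchange factor of Ran, from 163.9 ± 2.23 to 94.7 ± 1.82 CPM (-0.79). The 2 that did not pass, Tert at -0.28 with no more than 1.27 CPM in any library and the amino acid transporter Slc7a5 at -0.02, were named after their values were seen.

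Of 8 genes described as repressed by MYC, 2 rose, 3 fell and 3 did not pass, with a median log2 fold change of -0.04. The shares, 37.5% lower and 25% higher, are near the 34.4% and 35.4% of all genes. Ndrg1 rose from 118.9 ± 6.89 to 188.7 ± 10.4 CPM (log2 fold change 0.67), and Cdkn1b, the cell cycle inhibitor p27, from 68.3 ± 8.94 to 87.5 ± 3.00 CPM (0.35). Cdkn1c, the related inhibitor p57, fell from 13.2 to 18.6 CPM in the sgCtrl libraries to 3.65 to 4.59 CPM with sgSgf29 (-1.97), the stress gene Gadd45a from 52.2 ± 0.923 to 43.4 ± 3.73 CPM (-0.27) and Cdkn1a, the inhibitor p21, from 452.9 ± 47.3 to 384.2 ± 21.7 CPM (-0.24, named after its value was seen). With library size scaling, 1 of the 8 fell and 3 rose.

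Of 15 MYC cofactors, which act with MYC at chromatin, 6 fell, 6 rose and 3 did not pass, with a median log2 fold change of -0.11. These shares, 40% each, are near those of all genes tested (34.4% lower and 35.4% higher). The paired helicases Ruvbl2 and Ruvbl1 fell, Ruvbl2 from 349.0 ± 24.1 to 167.7 ± 11.8 CPM (log2 fold change -1.06, adjusted p = 4.6e-11 from edgeR) and Ruvbl1 from 122.0 ± 5.74 to 84.6 ± 4.15 CPM (-0.53). Wdr5, a subunit of histone methyltransferase complexes and of ATAC that binds MYC, fell by 0.45 on the log2 scale. Trrap, the scaffold shared by SAGA and TIP60 complexes, rose from 92.7 ± 7.24 to 125.5 ± 4.38 CPM (0.44), and the acetyltransferase gene Ep300 from 51.5 ± 6.34 to 73.1 ± 5.47 CPM (0.51). With library size scaling, 3 fell and 7 rose.

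Of 16 measured genes whose proteins set how long MYC protein lasts, 10 fell (62.5%, against 34.4% of all genes), 3 rose (18.8%, against 35.4%) and 3 did not pass, with a median log2 fold change of -0.27. Set, an inhibitor of the phosphatase PP2A, fell from 845.2 ± 48.0 to 420.7 ± 25.9 CPM (-1.01). The deubiquitinases Usp36, with -1.05, and Usp28, with -0.85, fell too, as did the kinase Aurka with -0.64. These 4 are known to stabilize MYC, but they were named for the smallest adjusted p of the list. They do not stand for all stabilizers in it. The list also holds genes known for the opposite, and they moved both ways. The ubiquitin ligase genes Fbxw7 (-0.41), Huwe1 (-0.55) and Stub1 (-0.56), named after their values were seen, fell. The groups overlapped for Fbxw7 and were apart for Huwe1 and Stub1. Gsk3b, the kinase that marks MYC for degradation, rose from 30.0 ± 1.53 to 42.8 ± 1.74 CPM (0.51). The other 2 that rose were Usp22, the deubiquitinase of SAGA, from 36.5 ± 4.64 to 48.5 ± 1.33 CPM (0.41), and the ubiquitin ligase gene Skp2, with 0.36 and groups that overlapped, both named after their values were seen. With library size scaling, 6 fell and 4 rose.

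The corepressor that MXD proteins and MNT recruit was measured by 18 tested genes of the SIN3 complex, of which 8 fell (44.4%, against 34.4% of all genes), 3 rose (16.7%, against 35.4%) and 7 did not pass, with a median log2 fold change of -0.07. The scaffolds Sin3a, at 65.4 ± 1.96 and 66.2 ± 0.660 CPM, and Sin3b, at 136.6 ± 3.39 and 140.6 ± 7.33 CPM, did not pass and are named as the core of the complex, after their values were seen. The histone chaperone Rbbp7 fell from 228.7 ± 10.9 to 139.2 ± 13.3 CPM (-0.72), and Fam60a (-0.76), Ing2 (-0.67) and the deacetylase Hdac2 (-0.53) fell as well. Its paralog Hdac1 rose from 110.4 ± 5.13 to 155.0 ± 11.9 CPM (0.49). The other 2 that rose were Arid4a with 0.62 and Ing1 with 0.19, whose groups overlapped. Hdac1 and Ing1 were named after their values were seen. With library size scaling, 5 fell and 9 rose.

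Of 13 partners of MGA in the variant polycomb complex PRC1.6, 8 fell (61.5%, against 34.4% of all genes), 3 rose (23.1%, against 35.4%) and 2 did not pass, with a median log2 fold change of -0.25. Pcgf6, the subunit that marks this form of the complex, fell from 27.7 ± 3.22 to 12.5 ± 0.239 CPM (log2 fold change -1.14, adjusted p = 5.7e-09 from edgeR), and L3mbtl2 fell from 78.1 ± 5.69 to 52.7 ± 4.46 CPM (-0.56). Rybp, a subunit shared by variant polycomb complexes, rose from 4.67 ± 0.147 to 11.6 ± 1.40 CPM (1.32), and the other 2 that rose, Cbx3 and Hdac1, are given above. Wdr5 and Hdac2, among the 8 that fell, are given above too. These shared genes are counted in more than 1 list, so the lists are not separate results. Mga mRNA itself, as described, did not pass. With library size scaling, 4 fell and 5 rose.

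On the MLX side, Mlxip, which codes for MondoA, was at 52.4 to 62.5 CPM in the sgCtrl and 63.6 to 67.7 CPM in the sgSgf29 libraries (log2 fold change 0.17, adjusted p = 0.049 from edgeR). This call was lost under 4 other settings and without 3 of the 6 libraries in turn. Mlxipl, which codes for ChREBP, was near the detection limit at 0.670 to 1.02 and 0.410 to 0.586 CPM and did not pass (adjusted p = 0.12 from edgeR). Of 3 tested targets of these factors, Arrdc4 rose from 18.3 ± 1.10 to 26.6 ± 1.21 CPM (0.54) and Txnip, an inhibitor of glucose uptake, from 261.7 ± 23.1 to 313.8 ± 27.0 CPM (0.26), and Arrdc3 did not pass. The share that rose was 66.7% of these few genes, against 35.4% of all genes tested. The mRNA of Mlx, their shared partner, was lower in the same libraries, with the limits given above.

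**Figure D4:**
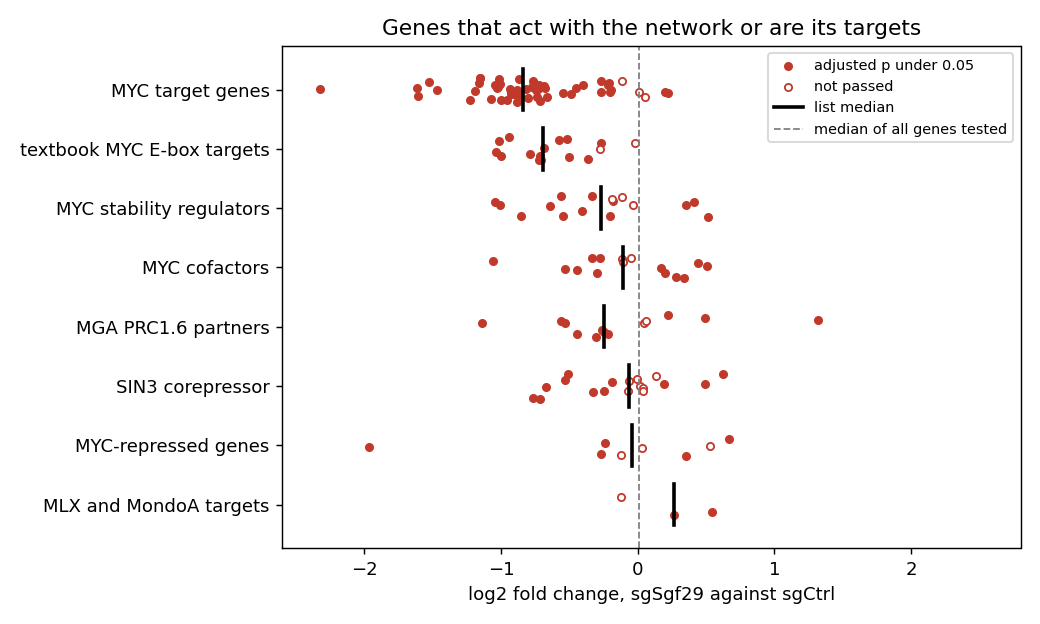
Log2 fold change of sgSgf29 against sgCtrl for each tested gene of 8 lists of targets and interacting genes, with filled circles for an adjusted p under 0.05, open circles for genes that did not pass, black bars for list medians and a dashed line for the median of all genes tested, 0.01. The medians of the MYC target genes (-0.84) and of the textbook E-box targets (-0.70) lie farthest to the left.

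The genes with the most similar profile over the 6 libraries were sought for Myc and for Mxd4, the opposing member with the largest fold change, among 9170 tested genes with a mean of at least 5 CPM. Likeness was the root mean square difference of log2 CPM, each gene centred on its own mean. Nearest to Myc were Naf1 (0.0465), Timm10 (0.0541), Gnb1l (0.0560), Mybbp1a (0.0694) and Spata24 (0.0695). Nearest to Mxd4 were Stk10 (0.0173), Plekhb2 (0.0467), Nfatc1 (0.0478), Tmem184b (0.0504) and Rnf115 (0.0512). All 10 share the step between the groups, with log2 fold changes of -1.03 to -0.93 for the first 5 and 1.03 to 1.13 for the others.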

How the data were processed

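The authors deposited 1 table of raw counts per gene symbol for 6 RNA-seq libraries of mouse MLL-AF9-Cas9+ cells, 3 sgCtrl and 3 sgSgf29. STAR, featureCounts and edgeR are named in the study's methods, with mapping to mm10. STAR 2.6.0a and GRCm38 stand in the processing notes of the submitters. The table ends with bookkeeping entries of the htseq-count kind, which held 25.8 to 31.4% of each library and entered neither the library sizes nor the tests. For the annotation and the strand setting, the sources used here give nothing beyond a directional library kit. Libraries were grouped by their labels and held 16003990 to 21786618 gene counts. Within a group, every pair of libraries differed by more than counting noise (4.48 to 15.4 in chi-square per degree of freedom).

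Genes were kept by filterByExpr (minimum count 10, minimum total 15), counts were scaled by TMM, and edgeR 4.0.16 (R 4.3.3) fitted its quasi-likelihood model to all 11169 genes. P-values were adjusted by Benjamini-Hochberg over these genes, and a gene was called at an adjusted p under 0.05. The common biological coefficient of variation came to 6.61%. SD is given for CPM after TMM scaling, and intervals are 95%. Limits from counts of 3 cover counting error only. Exon lengths and overlaps are from GENCODE and promoters from RefSeq, both on GRCm38. Alternatives were scaling by library size, by RLE, by the upper quartile or by TMM leaving out ribosomal protein genes, limma 3.58.1 (voom), DESeq2 1.42.0, the likelihood ratio test, other filters, an adjusted p under 0.01, a replicate block and each library left out in turn.

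The members and gene lists were chosen with earlier results of these data known. The MYC target list was written from memory of a public set. Named genes are all members, for each list up to 4 called genes by smallest adjusted p, its largest rise and its largest fall, and the 5 genes nearest in profile to Myc and to Mxd4. Genes outside this rule (Kit, Meis1, Mrc1, Ms4a1, Cd3e, Col3a1, Mycl, Mlxipl, Arrdc3 and those so marked in the text) were named after their values were seen. Cip2a and Sinhcaf had no row under these symbols. Overlaps with other genes were checked for the members and Sgf29 only.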

Additional observations from a re-analysis of the deposited data

How the results depend on the processing

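Of 153 values of the 9 tested members under 17 alternatives each, 143 kept their direction and their side of the threshold. Myc ranged from -1.02 to -0.74 and Mxd4 from 1.01 to 1.30 on the log2 scale, and Myc, Mxd1, Mxd4, Mxi1 and Mnt were called under all 17. Library size scaling gave Max as 0.20 and Mxd3 as 0.28 (both now called), Mga as 0.23 and Mlx as 0.0178, with 1 member lower and 6 higher. Mga was 0.0197 with upper-quartile scaling and -0.0717 to 0.103 with a library left out. It turned positive without sgCtrl library 3 and without sgSgf29 library 1 or 3 (0.0088 and 0.0426), and Mxd3, -0.0655 to 0.113 with a library left out, turned negative without sgCtrl library 3. By construction, library size scaling leaves out the TMM factors, 0.917 to 0.934 for sgCtrl and 1.06 to 1.10 for sgSgf29, and so moves all genes upward. It also gave 3 lower MYC cofactors, 6 lower stability regulators, 5 lower and 9 higher SIN3 genes, 4 lower and 5 higher PRC1.6 genes, 1 higher textbook target (0 otherwise) and 1 lower MYC-repressed gene, and 44 lower MYC targets in place of 51.

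With each library left out in turn, Mlx ranged from -0.24 to -0.15 and lost its call without the first sgSgf29 library, which left 1 to 2 members lower. Of the MAX and MLX partners outside the 10 members, the number higher (Mlxip alone) was 0 with RLE scaling, TMM without ribosomal protein genes, DESeq2 and an adjusted p under 0.01, and 0 to 1 with a library left out. The number of higher MYC targets was 0 at an adjusted p under 0.01 and 0 to 2 with a library left out: 0 without the second sgCtrl library, and 1 without the first sgCtrl library or without sgSgf29 library 2 or 3. The cause of these changes was not tested.

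The correlation of deviations between samples with the same number was 0.0264, 0.0841 and 0.125 across genes, so the numbers were not taken as pairs. Each sgCtrl sample nevertheless correlated best with the sgSgf29 sample of its own number. A replicate block gave -0.98 for Myc, 1.07 for Mxd4 and -0.22 for Mlx, 2 lower and 4 higher members, and changed the call of no tested member.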
